A study of Homo sapiens with 9 samples.

Results

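The direct comparison of AML1-ETO with ETO2-GLIS2 after 12 h of induction rested on 2 of the 9 RNA-seq libraries of the study, 1 from each fusion line, both given 5 µg/ml doxycycline. The lines were made from U937, a human monocytic leukemia cell line, by retroviral transduction of a doxycycline-inducible vector and isolation of single clones, so that clone 4 stood for AML1-ETO (the AE line), clone 14 for ETO2-GLIS2 (the EG line), and each fusion was 1 clone. Another line held the empty vector and received the same drug, and each of the 3 lines was sequenced at 0, 12 and 48 h. There was 1 library per line and time. A difference between the fusions and a difference between the clones therefore cannot be told apart at any single time, and no p-value was computed.

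Genes were compared by log2 of the ratio of FPKM (the read number of a gene per unit of exon length and of library size) in the AE library to that in the EG library, after adding 0.1 to both. Of the 60623 genes listed, 11847 had a mean of at least 1 FPKM in the pair. A gene was called AE-high or EG-high when it was past 2-fold, and it was set aside when it was already past 2-fold the same way between the 0 h libraries. Because the ratio includes the added 0.1, fold changes of low genes are understated.

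AML1-ETO joins the Runt DNA-binding domain of RUNX1 (AML1) to nearly all of the corepressor ETO, which is encoded by RUNX1T1. ETO2-GLIS2 joins ETO2, the product of CBFA2T3 and a relative of ETO, to the zinc fingers of GLIS2. Both fusions thus keep an ETO-family part and differ in the DNA-binding part. The ETO-family parts also differ, since ETO2-GLIS2 lacks a conserved domain of that family which AML1-ETO keeps. The study proposes that this lack may limit the recruitment of corepressors by ETO2-GLIS2. They are found in different types of acute myeloid leukemia, a myeloblastic type for AML1-ETO and a megakaryoblastic type for ETO2-GLIS2.

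Across the 11847 genes the difference had a median of 0.07 on the log2 scale, and 75.7% of the genes lay within 0.5 of 0. Past 2-fold were 580 genes in the AML1-ETO direction (4.9% of those tested) and 294 in the ETO2-GLIS2 direction (2.48%). Of these, 209 and 86 were set aside, which left 371 AE-high genes (3.13% of those tested) and 208 EG-high genes (1.76%). The uninduced pair had differed by nearly as much, with 427 and 302 genes past 2-fold among 11224, or 6.5% against 7.38% at 12 h. At 48 h the share was 20.4%.

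The same rule with the times exchanged gives the number of genes that part the clones at 0 h and no longer do at 12 h. It found 240 genes higher in the AE clone and 232 higher in the EG clone. Among protein coding genes the numbers were 70 and 96 with the times exchanged, against 103 AE-high and 113 EG-high at 12 h. Over all gene types the list at 12 h was thus longer than this on the AE-high side and shorter on the EG-high side, and among protein coding genes it was longer on both.

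Read numbers gave the precision of each ratio. The number of reads behind each FPKM was recovered for 23850 genes and gave an exact 95% counting interval (Clopper-Pearson) for each ratio, which covers counting error only and not variation between cultures. The whole interval was past 2-fold for 74 AE-high genes (0.625% of those tested) and 69 EG-high genes (0.582%). With the times exchanged, 53 and 43 genes met this. Most members were low, with 299 AE-high and 140 EG-high genes under a mean of 5 FPKM, and 33 and 12 were listed at 0 in the lower library.

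The 2 lists also differed in kind. Protein coding genes made up 27.8% of the AE-high list and 54.3% of the EG-high list, against 82.1% of all genes tested. Of the AE-high genes 92 were lncRNAs, 93 small RNA genes and 71 pseudogenes, and of the EG-high genes 26, 36 and 23. Further results are therefore given for the 103 and 113 protein coding members, of which 44 and 64 had the whole interval past 2-fold. The genes nearest the limits were FAM21FP (1.0, called) and LENG8-AS1 (0.999, not called) on the AE-high side and STARD4-AS1 (-1.0, called) and NT5DC1 (-0.9999, not called) on the EG-high side. At the 0 h limit they were RPS10P3 (0.994, kept) and AC007842.1 (1.002, set aside), and AC103706.1 (-0.997, kept) and DUSP4 (-1.01, set aside).

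**Figure D1:**
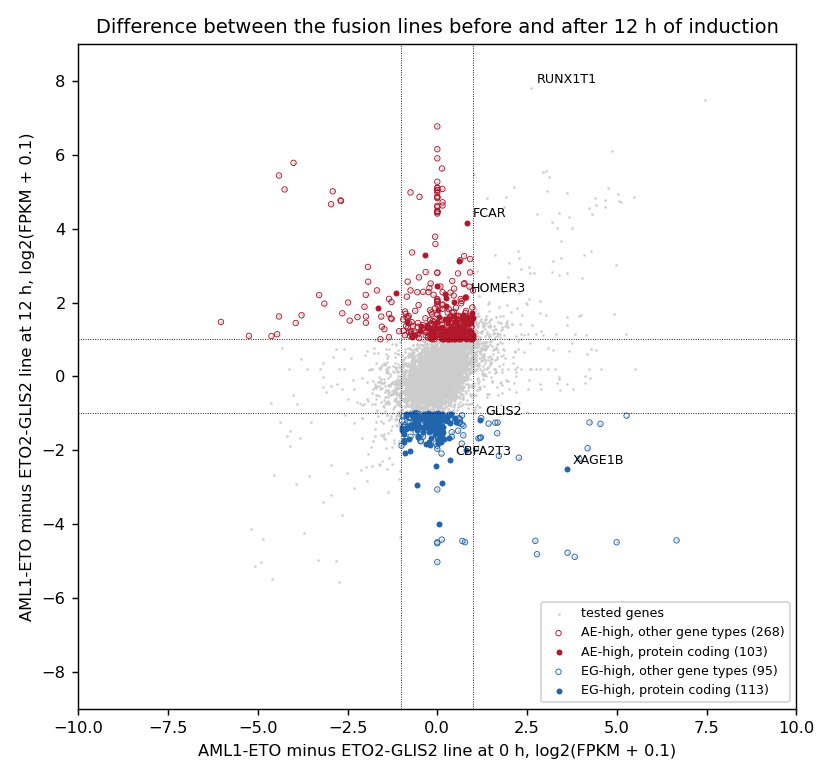
Each point is 1 of the 11847 tested genes, with the log2 difference between the fusion lines at 0 h on the x axis and at 12 h on the y axis, and dotted lines at 2-fold. The 371 AE-high genes (red) and 208 EG-high genes (blue) are filled where protein coding and open otherwise, and RUNX1T1, at 7.80 on the y axis, lies among the genes set aside.

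The genes carried by the constructs were read first. At 0, 12 and 48 h RUNX1T1 read 0.512, 22.2 and 28.7 FPKM in the AE line. It was listed at 0 at all times in the EG line, and in the empty vector line at 0, 0 and 0.0240. The AE clone thus held RUNX1T1 reads before doxycycline, and the gene was set aside by the rule with a 0 h difference of 2.61. Against a floor of 3 reads in the EG library at 12 h, 0.0124 FPKM, it was at least 1788-fold higher in the AE library.

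GLIS2, a zinc finger transcription factor of the kidney and of the Krüppel-like class, read 2.39, 6.79 and 8.85 FPKM in the EG line, 5.60, 2.93 and 2.47 in the AE line and 4.76, 3.64 and 3.72 in the empty vector line. Its difference went from 1.19 toward the AE clone before induction to -1.19 (95% interval -1.45 to -0.98) after 12 h. CBFA2T3, which encodes ETO2, read 4.10, 11.4 and 12.6 FPKM in the EG line, 5.26, 2.28 and 0.220 in the AE line and 4.75, 6.38 and 6 in the empty vector line. Its 12 h difference of -2.27 (-2.54 to -2.10) joined a rise of 1.45 in the line that carries ETO2 sequence to a decline of 1.17 in the AE line, which carries none. Reads of the construct and of the cell's own CBFA2T3 or GLIS2 cannot be told apart. The exons of GLIS2 overlap a gene on the other strand over 23.5% of their bases.

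Among the relatives of these genes none was past 2-fold at 12 h. RUNX1, whose Runt part is in AML1-ETO, differed by -0.11 (-0.16 to -0.05) and RUNX3 by -0.00 (-0.08 to 0.07), while RUNX2 differed by 0.69 (0.60 to 0.81) and CBFA2T2, which encodes the corepressor MTGR1 of the ETO family, by 0.53 (0.42 to 0.65). Reads on RUNX1 thus did not set the lines apart, whereas reads on RUNX1T1 did.

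The 12 h libraries held most of the monocytic markers read. CD33, CD4, LYZ, ELANE, ITGB2, SPI1 and PTPRC, 7 of 10 monocytic markers, were above 1 FPKM in both, and the 10 summed to 2533 FPKM in the AE library and 2573 in the EG library. MPO was under 1 in both, CSF1R read 0.302 and 1.51, and CD68 was listed at 0 and at 0.0258. The erythroid (HBB, HBA1, ALAS2) and epithelial (EPCAM, KRT8, KRT18) markers were all listed at 0 in both, and the megakaryocyte markers summed to 0.102 and 0.0295. T cell markers (CD3D, CD3E, CD2) summed to 0.0793 and 0.239. Of the B cell markers CD79A read 0.302 and 2.27 and MS4A1 was listed at 0 in both. CD68 and KRT18 were at or near 0 in all 9 libraries, and whether reads on overlapping genes or near-identical copies were left out in the counting was not tested, so their zeros are weak marker readings. In these bulk libraries fewer cells of a kind and less RNA per cell cannot be told apart.

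The lines did not take equal part in the differences. For the 113 EG-high protein coding genes the median change from 0 to 12 h was -0.86 in the AE line, 0.27 in the EG line and 0.15 in the empty vector line, on the log2 scale. Past 2-fold, 40 of the 113 fell in the AE line and 17 rose in the EG line, 4 genes did both, and 60 moved past 2-fold in neither line. Over all tested protein coding genes the same moves were made by 1.24% and 0.936%. At 1.5-fold the counts were 77 and 30.

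For the 103 AE-high protein coding genes the median change was 0.71 in the AE line, -0.11 in the EG line and 0.35 in the empty vector line. Past 2-fold, 31 rose in the AE line and 5 fell in the EG line, 1 gene did both, and 68 moved past 2-fold in neither line. The background was 2.44% for such a rise and 0.566% for such a fall. At 1.5-fold the counts were 62 and 14. These genes also began apart, with a median difference of 0.46 at 0 h, against -0.16 for the EG-high genes. With the 0 h difference subtracted, 16 of the 26 named AE-high genes and 7 of the 34 named EG-high genes were no longer past 2-fold. Since members were chosen as past 2-fold at 12 h and not at 0 h, the direction of the moves is partly set by the choice of genes, and the counts describe only how the moves were divided between the lines.

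The empty vector line, which the rule did not use, gave a reference for both 12 h libraries. Of the EG-high coding genes 72 were past 2-fold below the empty vector at 12 h in the AE library (background 2.04%) and 7 were past 2-fold above it in the EG library (1.7%). Of the AE-high coding genes 34 were above it in the AE library (2.52%) and 15 below it in the EG library (1.02%). The median EG-high coding gene stood at -1.15 in the AE library and 0.19 in the EG library relative to the empty vector. The 12 h divergence in these genes was thus mainly a lower level in the AE library, in a comparison where all 3 libraries had received the drug. Members were chosen on the same AE and EG values, so counts above the background are partly set by that choice. Differences from the empty vector at 0 h were not subtracted.

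**Figure D2:**
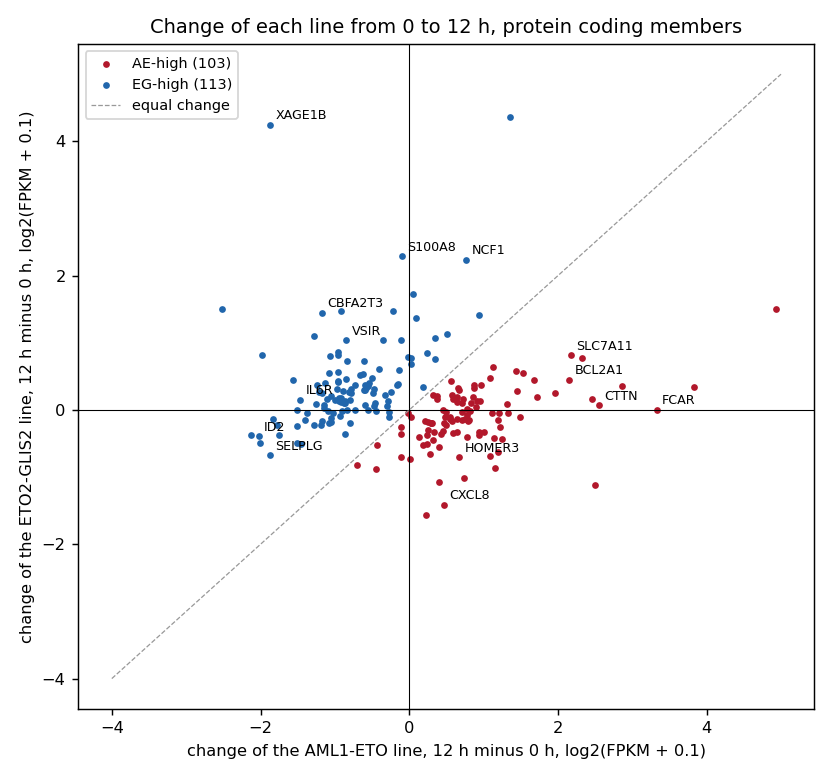
Each point is a protein coding member, with the log2 change of the AE line from 0 to 12 h on the x axis and that of the EG line on the y axis, and the dashed line marks equal change. The 113 EG-high genes (blue) lie mostly to the left of 0 (median -0.86) and the 103 AE-high genes (red) to its right (median 0.71), with smaller vertical spread around medians of 0.27 and -0.11.

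FCAR had the largest AE-high difference of the genes named here. It encodes the Fc receptor for IgA on myeloid cells and lies at chr19:54874235-54891420 (RefSeq, GRCh38.p14). Its FPKM at 0, 12 and 48 h was 3.01, 31.1 and 56.3 in the AE line, 1.65, 1.65 and 3.34 in the EG line and 0.684, 0.993 and 1.84 in the empty vector line. From 0 to 12 h the change on the log2 scale was 3.33 in the AE line, 0.00 in the EG line and 0.48 in the empty vector line. The 12 h difference of 4.16 (3.94 to 4.55) rested on 1596 reads against 98, an 18.9-fold ratio of FPKM, after a 0 h difference of 0.83. Other genes of the same strand share 22.5% of its exon bases.

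CTTN, which encodes the actin-binding protein cortactin, started level in all lines. It read 0.929, 5.93 and 30.5 FPKM in the AE line, 0.944, 0.998 and 1.41 in the EG line and 0.858, 0.913 and 0.673 in the empty vector line. From -0.02 before induction the difference had grown to 2.46 (2.29 to 2.86) after 12 h, and it was 4.34 after 48 h. BCL2A1, an antiapoptotic relative of BCL2, read 18.0, 80.3 and 80.1 FPKM in the AE line, 22.1, 30.3 and 32.2 in the EG line and 9.49, 13.4 and 25.7 in the empty vector line. It had reached its 48 h level at 12 h, with a difference of 1.40 (1.25 to 1.57) from -0.29 at 0 h.

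SLC7A11, the cystine transporter of the amino acid stress response, rose in all lines and most in the AE line, where it read 2.72, 12.6 and 68.9 FPKM against 3.13, 5.59 and 18.9 in the EG line and 2.81, 6.67 and 13.1 in the empty vector line. Its difference at 12 h was 1.16 (1.06 to 1.29). CXCL8, the neutrophil chemokine interleukin-8, reached its difference of 2.13 (1.92 to 2.39) another way. It read 15, 20.7 and 113 FPKM in the AE line, 12.6, 4.67 and 12.2 in the EG line and 5.02, 1.27 and 5.34 in the empty vector line, so that the levels of the other 2 lines dipped at 12 h and that of the AE line did not.

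CITED2, a transcriptional coregulator that binds CBP and p300, was the most highly expressed of the named AE-high genes. Its FPKM was 195, 318 and 177 in the AE line, 100, 97.6 and 63.9 in the EG line and 137, 116 and 80.7 in the empty vector line. The difference of 1.7 (1.66 to 1.75) at 12 h added to one of 0.96 at 0 h, just inside the limit. HOMER3, a scaffold protein known from synapses, changed by 0.67 in the AE line and by -0.70 in the EG line, which took a 0 h difference of 0.78 to 2.15 (2.01 to 2.32) at 12 h.

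The remaining AE-high genes named by expression were C3orf80, CFD (complement factor D), CHCHD10, EXOSC5, PIM3 (a serine/threonine kinase) and PRXL2B, with differences between 1.2 and 1.58. All 6 were already higher in the AE clone at 0 h, by 0.27 for PIM3 and by 0.61 to 0.99 for the others. CHCHD10 was level with the empty vector in the AE library at 12 h (-0.01) and 1.58 below it in the EG library. Apart from PIM3, these genes thus started further from level than CTTN (-0.02) or BCL2A1 (-0.29).

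IL6R, the interleukin-6 receptor, had the most reads of the named EG-high genes. It lies at chr1:154405343-154469450 and read 78.2, 28.2 and 2.27 FPKM in the AE line, 73.7, 81.9 and 69.6 in the EG line and 81.7, 78.9 and 73.2 in the empty vector line. The 12 h difference of -1.53 (-1.60 to -1.48) rested on 2811 reads against 9455 and followed one of 0.09 at 0 h. LAT2, an adaptor that links immunoreceptors to signalling, had the same course, with 35.8, 12.5 and 0.231 FPKM in the AE line, 40.2, 34.2 and 36.7 in the EG line and 36.3, 36.0 and 34.3 in the empty vector line. In both genes 2 of the 3 lines stayed near the uninduced level and the AE line alone fell, by 1.47 for IL6R and 1.5 for LAT2 on the log2 scale.

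ATP2B4 (plasma membrane calcium pump), BHLHE40 (basic helix-loop-helix repressor), PHACTR3 (regulator of actin and protein phosphatase 1) and TUBA4A (alpha-tubulin) shared the AE line's fall. In the AE line they fell by 1.83, 1.75, 1.56 and 1.25 by 12 h, while the changes in the EG line lay between -0.38 (BHLHE40) and 0.45 (PHACTR3). In the empty vector line ATP2B4, BHLHE40, PHACTR3 and TUBA4A changed by -0.34, -0.05, 0.25 and -0.57 by 12 h. By 48 h the changes there were -0.84, -0.09, -0.19 and -0.60. PHACTR3 read 16.8, 5.65 and 0.172 FPKM in the AE line and 13.4, 18.3 and 14.2 in the EG line. Their 0 h differences were between -0.12 and 0.32, so that these genes were close to level before induction.

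A second set of EG-high genes went up by 12 h in the lines without AML1-ETO. VSIR, the immune checkpoint protein VISTA, read 10.7, 22.1 and 38.4 FPKM in the EG line and 6.97, 19.3 and 31.5 in the empty vector line, against 11.5, 6.34 and 0.319 in the AE line. SLA, an adaptor that dampens receptor signalling, read 10.0, 18.3 and 21.4 in the EG line, 8.69, 14.4 and 13.4 in the empty vector line and 10.1, 5.16 and 0.167 in the AE line. In both genes the ETO2-GLIS2 and empty vector lines moved up together, by 1.04 and 1.45 for VSIR and by 0.86 and 0.72 for SLA, and the AE line moved down, by 0.84 and 0.96. GPR183, a receptor for oxysterols that steers immune cells, PTAFR, the receptor for platelet-activating factor, and LGALS12, a galectin, moved the same ways by 12 h, with differences of -1.84, -1.31 and -1.68. LGALS12 did not stay up in the empty vector line, where it read 15.3, 18.0 and 13.0 FPKM.

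RHOU, an atypical GTPase of the actin cytoskeleton, belonged to the same set, with 29.3, 20.8 and 6.68 FPKM in the AE line, 32.8, 45.6 and 73.9 in the EG line and 24.2, 33.0 and 44.3 in the empty vector line. Its difference was -1.13 (-1.23 to -1.04) at 12 h and -3.45 at 48 h. FCER1G, the signalling chain shared by Fc receptors, including the one encoded by FCAR, held at 40.5 and 41.3 FPKM in the AE line between 0 and 12 h while it went from 51.6 to 88.5 in the EG line and from 34.3 to 54.1 in the empty vector line. The receptor FCAR and its partner chain FCER1G thus stood on opposite sides, at 4.16 and -1.10 (-1.23 to -0.96).

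GJB2 (a gap junction connexin), CDA (cytidine deaminase), PIK3AP1 and CTSG (cathepsin G) completed the EG-high genes named by expression. GJB2 and CDA were already lower in the AE clone at 0 h, by 0.93 and 0.86, and kept a difference of -1.77 and -1.41. CTSG read 83.8, 63.4 and 2.59 FPKM in the AE line, 108, 166 and 103 in the EG line and 61.2, 118 and 80.5 in the empty vector line, and its 12 h difference of -1.39 (-1.48 to -1.30) stood beside -5.26 at 48 h.

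**Figure D3:**
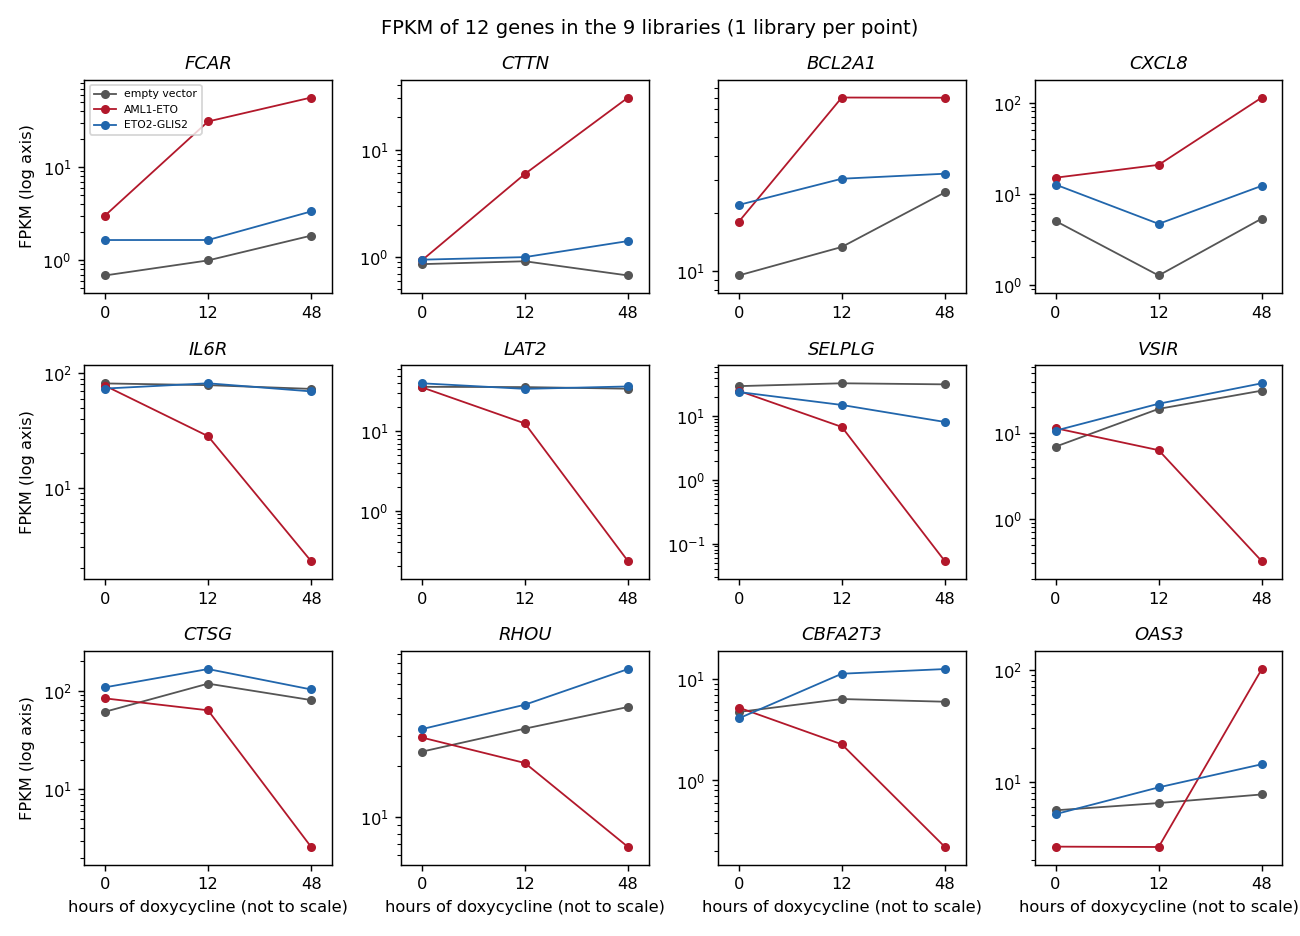
FPKM on a log axis of 12 genes against hours of doxycycline in the AML1-ETO (red), ETO2-GLIS2 (blue) and empty vector (gray) lines, 1 library per point. For IL6R and LAT2 the ETO2-GLIS2 and empty vector points stay near their 0 h level and the AML1-ETO points fall to 2.27 and 0.231 FPKM, while FCAR and CTTN climb in the AE line to 56.3 and 30.5 FPKM.

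Of the 113 EG-high coding genes, the 7 counted above stood past 2-fold above the empty vector in the EG library, against a background of 1.7%. At 1.5-fold there were 20. These counts are partly set by the choice of genes. CYBB, the catalytic subunit of the phagocyte NADPH oxidase, was among the 7. It read 1.43, 3.07 and 1.74 FPKM in the EG line, 0.723, 0.659 and 0.357 in the AE line and 0.639, 0.762 and 0.925 in the empty vector line. S100A8, a calcium-binding protein of granulocytes and monocytes, rested on 44 reads against 6 at 12 h and on 8 against 7 at 0 h, with 0.487, 2.76 and 0.686 FPKM in the EG line. NCF1, another oxidase subunit, read 0.693, 3.63 and 6.56 in the EG line and 0.401, 1.65 and 2.05 in the empty vector line. NCF1 has near-identical pseudogene copies, so its reads may be divided among them.

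XAGE1B, a cancer-testis antigen gene on chromosome X, rose by 4.25 in the EG line by 12 h on the log2 scale. It read 0.614, 13.5 and 0.865 FPKM in that line, 8.62, 2.29 and 1.39 in the AE line and 0.826, 1.03 and 1.79 in the empty vector line. The near-identical copy XAGE1A makes the split of reads uncertain, but the sum of both copies had the same form, at 1.19, 27.4 and 1.65 in the EG line and 9.26, 4.09 and 3.49 in the AE line. In the EG line the high value thus stood in the 12 h library alone and was gone at 48 h. The AE line had a smaller high value in its uninduced library, and its fall by 12 h adds to the contrast between the lines.

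Gene lists chosen by function held 574 different genes, of which 422 were tested, 15 were AE-high and 20 EG-high, and 16 were set aside. Their shares were 15 and 20 of 422, where 1.06% of all tested protein coding genes were AE-high and 1.16% EG-high. The lists were chosen with earlier results of these data known. A higher share in the lists is therefore partly set by their choice. Of the 26 lists 6 held no member, namely antigen presentation, cholesterol and fatty acid synthesis, iron and heme, glycolysis and hypoxia, replication and mitosis, and the mitochondrial genome.

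Genes of homing and selectin binding had the lowest median, -0.77 over 15 tested genes, against 0.07 over all genes and against 0.02 for the same 15 at 0 h. Of the 15, 11 were higher in the EG library, and 3 were EG-high. SELPLG, the selectin ligand PSGL-1, read 25.2, 6.81 and 0.0527 FPKM in the AE line, 24.1, 15.1 and 8.14 in the EG line and 29.8, 33.0 and 31.8 in the empty vector line. It was lower than the empty vector in both fusion libraries at 12 h, by 2.26 and 1.13 on the log2 scale, and more so in the AE library. FUT7, the fucosyltransferase that completes selectin ligands, read 4.27, 0.903 and 0 in the AE line and 4.22, 3.22 and 2.41 in the EG line, and other genes of the same strand share 34.2% of its exon bases. The chemokine receptor CCR1 differed by -1.31 (-1.60 to -1.07). CCR2 was set aside, since its difference of -2.45 followed one of -1.98 at 0 h. Restricted to genes with a mean of at least 5 FPKM, the median of the list was -0.12.

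Cytokine receptors followed, with a median of -0.31 over 18 tested genes and 0.07 at 0 h. IL6R and IL10RA were the EG-high members. IL10RA, the ligand-binding chain of the interleukin-10 receptor, read 4.45, 2.02 and 0.819 FPKM in the AE line and 4.44, 5.00 and 8.63 in the EG line, a difference of -1.27 (-1.52 to -1.10). For immunoreceptor signalling the median was -0.25 over 21 genes, from 0.10 at 0 h, and LAT2 was the one member. In that list the adaptor LCP2 (-0.97) and the SRC-family kinase FGR (-0.79) were within 2-fold, and 15 of the 21 genes were lower at 12 h than at 0 h in the AE line against 3 of 21 in the EG line.

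Myeloid transcription factors had 1 member on each side among 23 tested. BHLHE40 was EG-high, and CEBPE, a factor of late granulocyte maturation, was AE-high at 1.23 (0.99 to 1.48), after 0.36 at 0 h. CEBPE read 10.7, 17.6 and 24.4 FPKM in the AE line, 8.3, 7.45 and 9.52 in the EG line and 6.45, 8.08 and 13.8 in the empty vector line. It thus also rose in the empty vector line. SPI1, which encodes PU.1, read 92.6, 53.1 and 11.9 FPKM in the AE line, 88.0, 76.8 and 80.9 in the EG line and 67.0, 76.9 and 97.3 in the empty vector line. Its 12 h difference of -0.53 (-0.62 to -0.45) had an interval clear of 0 and was within 2-fold. CEBPB, a factor of monocytic differentiation, differed by -0.37 (-0.56 to -0.20) and was lower than the empty vector in both fusion libraries, by 1.5 and 1.12. EGR1 was set aside at 1.64, having stood at 1.75 at 0 h.

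BMP, cell cycle and survival genes gave 2 members a list. ID2, an inhibitor of basic helix-loop-helix factors, fell by 2.03 in the AE line, from 17.7 to 4.27 FPKM, and by 0.39 in the EG line, from 20.6 to 15.7, and the empty vector line also went down, by 0.85 from 20.1 to 11.1, for a difference of -1.85 (-2.15 to -1.61). SMAD6, an inhibitor of BMP signalling, was AE-high at 1.5 (1.34 to 1.79) after 0.84 at 0 h. Among 25 G1 cyclins, kinases and inhibitors, CCND2 (1.06) and CDKN2B (1.13), which encodes the CDK inhibitor p15, were AE-high, and CDKN2B went from 1.88 to 3 FPKM in the AE line and from 1.68 to 1.31 in the EG line. In apoptosis the members parted, with BCL2A1 AE-high and BCL2 EG-high at -1.14 (-1.41 to -0.98). BCL2 read 3.03, 1.37 and 0.413 in the AE line and 3.16, 3.14 and 2.21 in the EG line. Of 26 replication and mitosis genes none was past 2-fold, and 22 were higher in the EG library, with a median of -0.24 against -0.06 before induction and -1.02 in the 48 h pair.

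LYL1, a basic helix-loop-helix factor that pairs with E proteins, was AE-high at 1.05 (0.95 to 1.16) through the ETO2-GLIS2 side, and just under 2-fold (0.99) after median-ratio rescaling. It read 47.7, 44.2 and 18.5 FPKM in the AE line, 34.6, 21.3 and 19.5 in the EG line and 46.6, 47.8 and 54.7 in the empty vector line. At 48 h both fusion libraries had reached a low level and the difference was -0.08. JUP, which encodes the junction protein plakoglobin, was the only member among 13 tested genes linked to t(8;21) leukemia, and F2R, the thrombin receptor, the only one among 5 tested of the megakaryocyte list. JUP read 12.1, 13.3 and 40.5 FPKM in the AE line, 7.91, 5.94 and 6.28 in the EG line and 8.12, 4.72 and 2.81 in the empty vector line, so that it held its level to 12 h while the other lines dropped. F2R had a mean near the minimum and rested on 97 reads against 35.

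**Figure D4:**
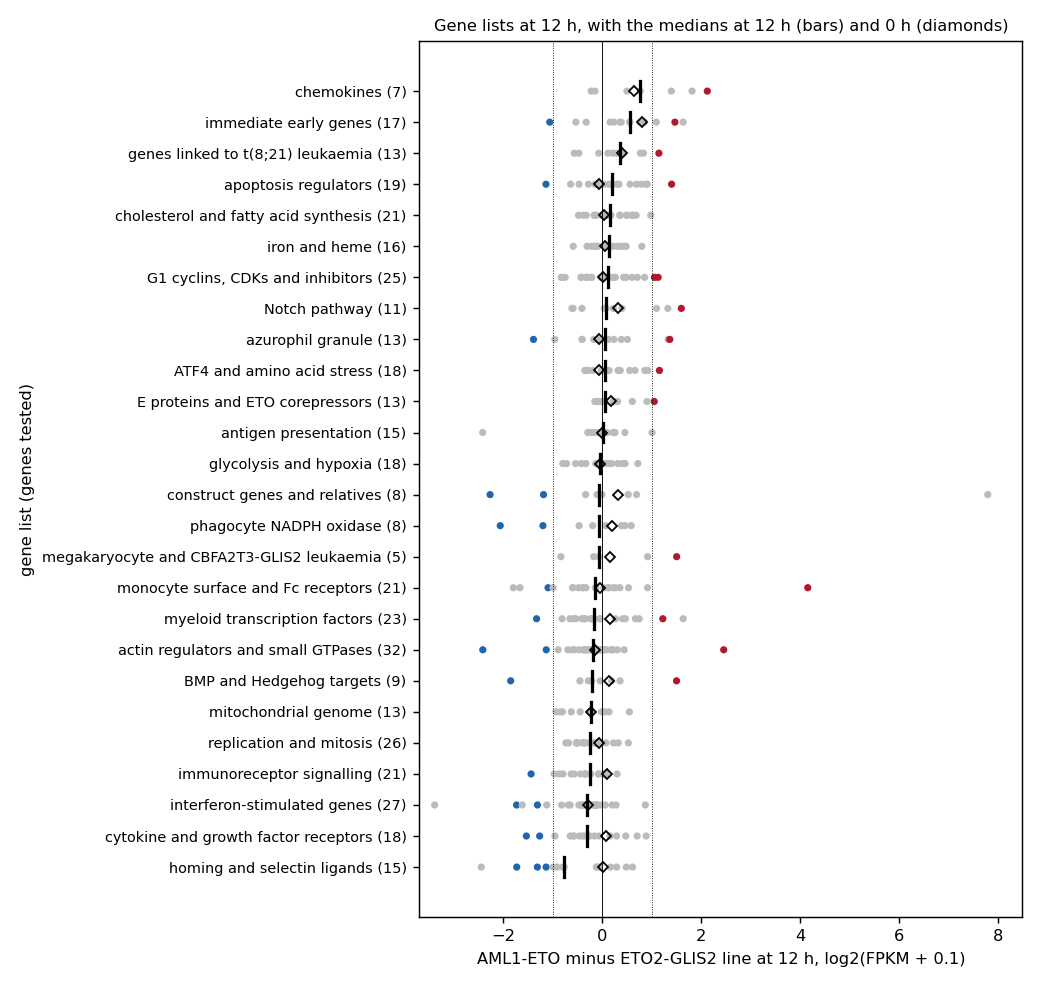
Each dot is a tested gene of 1 of 26 lists, placed by its log2 difference at 12 h, red where AE-high and blue where EG-high, with the list's median at 12 h (bar) and at 0 h (diamond). Homing and selectin ligands have the lowest median at -0.77 against 0.02 at 0 h, while chemokines have the highest at 0.77 and stood at 0.64 at 0 h.

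The 48 h libraries, which took no part in choosing the members, showed how the early differences went on. Of the 113 EG-high coding genes 101 (89.4%) were past 2-fold the same way at 48 h, against 10.8% of all coding genes tested. Of the 103 AE-high coding genes 47 (45.6%) were, against 5.33%. For the genes past 2-fold at 0 h and not at 12 h the shares at 48 h were 19.8% (19 of 96) on the ETO2-GLIS2 side and 21.4% (15 of 70) on the AML1-ETO side. The genes that parted at 12 h were past 2-fold at 48 h more often than those that had parted the clones before induction and not at 12 h. The latter were chosen as no longer past 2-fold at 12 h, the time nearer to 48 h. Their lower share is therefore partly set by the choice of genes, and no conclusion is drawn from the contrast. Each share compares the same 2 clones, and no test was possible with 1 library a side.

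The EG-high differences also widened, in 96 of 113 coding genes, with a median of -1.27 at 12 h and of -2.52 at 48 h. The AE-high differences widened in 31 of 103, with medians of 1.221 and 0.97. LAT2 (-6.79), VSIR (-6.52), SLA (-6.33) and LGALS12 (-6.25) were among the widest at 48 h. On the AE-high side CTTN, CXCL8 and PRXL2B widened to 4.34, 3.21 and 2.77, while EXOSC5, CFD and CHCHD10 shrank to 0.40, 0.32 and 0.31.

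Turned differences were rare among coding members. OAS3, TNFSF10, RSAD2 and XAGE1A were EG-high at 12 h and past 2-fold higher in the AE line at 48 h, and KCNE1 went the other way. OAS3, an antiviral enzyme that makes 2-5A, read 2.63, 2.61 and 102 FPKM in the AE line, 5.14, 8.91 and 14.4 in the EG line and 5.56, 6.45 and 7.71 in the empty vector line. RSAD2, the antiviral protein viperin, read 0.907, 0.810 and 9.34 in the AE line and 1.62, 2.16 and 2.34 in the EG line. Both belong to the interferon-stimulated genes, of which 23 of 27 tested were higher in the EG library at 12 h, with a median of -0.30, and 24 of 27 were higher in the AE library at 48 h, with a median of 2.39. At 0 h the median was already -0.28 and 23 of the 27 were higher in the EG clone, so that the 12 h pair had the order of the uninduced clones.

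**Figure D5:**
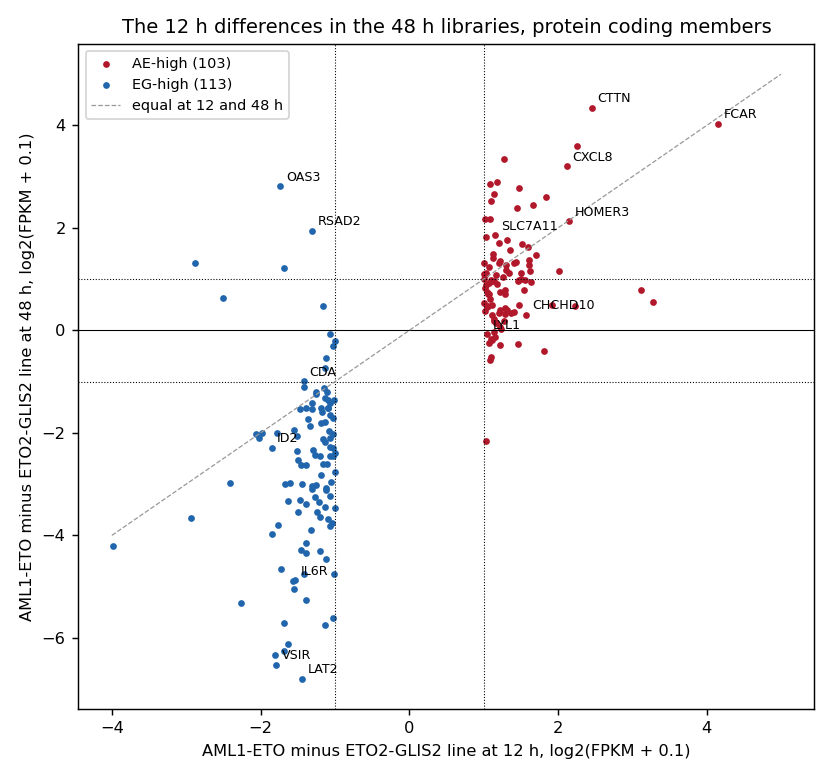
Each point is a protein coding member, with its log2 difference at 12 h on the x axis and at 48 h on the y axis, dotted lines at 2-fold and a dashed line where both are equal. Most EG-high genes (blue) lie below the dashed line, with a median of -2.52 at 48 h, and OAS3 (2.82) and RSAD2 (1.95) lie on the opposite side.

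Sequence upstream of the members was read last. The Runt domain in AML1-ETO is known to bind the letters TGTGGT or TGCGGT, which were searched on both strands in the 250 bases before the start site that RefSeq gives each gene (GRCh38.p14). A promoter was found for 177 of the 216 protein coding members. At least 1 match lay upstream of 24 of 91 EG-high genes (26.4%), 13 of 86 AE-high genes (15.1%), 1220 of 8146 tested coding genes (15%) and 4400 of all 27305 promoters listed (16.1%). For the genes past 2-fold at 0 h and not at 12 h it was 14 of 79 (17.7%) on the ETO2-GLIS2 side and 4 of 54 (7.41%) on the AML1-ETO side. The EG-high genes thus held the letters more often than each of these sets, as a description of this window without a test. Within the EG-high genes the share was 17 of 59 (28.8%) where the AE line fell past 1.5-fold. It was 7 of 24 (29.2%) where the EG line rose past 1.5-fold. These groups share genes and are small.

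The letters TGGGGGGT, part of the sequence bound by GLIS zinc fingers, lay upstream of 3 of 91 EG-high and 3 of 86 AE-high genes (3.30% and 3.49%), against 0.960% of tested coding genes. The letters GAGGAAGT, of the kind bound by PU.1, lay upstream of 5.49% and 2.33%, against 2.22%. None of these motifs contains another. These counts are small, and a match is not a bound site.

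Of the named members with a Runt match 5 are printed, 4 EG-high genes (IL6R, ATP2B4, CCR1 and FCER1G) and 1 AE-high gene (PRSS57, a granule serine protease). They are printed because they carry the letters that the Runt domain is known to bind, which AML1-ETO has and ETO2-GLIS2 does not. Each line gives the 250 bases before the start site in the direction of transcription, 5′ to 3′, in lower case with the match in capitals, which reads ACCACA or ACCGCA where it is on the other strand.
IL6R, chr1:154405093-154405342, plus strand: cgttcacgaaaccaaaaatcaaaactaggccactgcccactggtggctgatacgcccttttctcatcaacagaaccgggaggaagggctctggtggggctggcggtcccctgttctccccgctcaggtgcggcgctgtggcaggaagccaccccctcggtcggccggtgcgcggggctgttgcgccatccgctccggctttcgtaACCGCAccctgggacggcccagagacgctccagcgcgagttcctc
ATP2B4, chr1:203626582-203626831, plus strand: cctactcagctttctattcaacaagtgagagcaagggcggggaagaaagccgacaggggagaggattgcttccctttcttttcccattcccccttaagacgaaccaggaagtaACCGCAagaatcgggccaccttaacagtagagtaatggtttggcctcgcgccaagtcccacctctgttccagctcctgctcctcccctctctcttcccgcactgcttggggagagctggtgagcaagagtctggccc
CCR1, chr3:46208314-46208563, minus strand: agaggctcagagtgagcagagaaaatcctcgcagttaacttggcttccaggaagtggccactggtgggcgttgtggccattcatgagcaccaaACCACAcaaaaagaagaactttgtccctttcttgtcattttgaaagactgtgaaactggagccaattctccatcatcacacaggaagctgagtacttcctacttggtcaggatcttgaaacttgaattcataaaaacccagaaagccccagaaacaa
FCER1G, chr1:161215045-161215294, plus strand: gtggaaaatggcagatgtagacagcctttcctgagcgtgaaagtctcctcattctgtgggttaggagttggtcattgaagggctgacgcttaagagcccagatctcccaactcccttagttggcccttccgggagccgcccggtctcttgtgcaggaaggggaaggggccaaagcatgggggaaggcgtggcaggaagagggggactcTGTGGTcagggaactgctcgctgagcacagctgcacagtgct
PRSS57, chr19:695453-695702, minus strand: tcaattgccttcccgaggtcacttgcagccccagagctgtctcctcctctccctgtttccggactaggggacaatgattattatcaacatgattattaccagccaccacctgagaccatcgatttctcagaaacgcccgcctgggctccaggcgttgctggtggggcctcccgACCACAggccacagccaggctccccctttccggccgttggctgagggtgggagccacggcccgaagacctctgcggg

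The first base of the match lay at -45 in IL6R, -42 in FCER1G, -137 in ATP2B4, -157 in CCR1 and -77 in PRSS57, counted back from the start site. Of these genes IL6R, ATP2B4 and CCR1 went down in the AE line by 12 h (by 1.47, 1.83 and 1.05), FCER1G changed by 0.03 and PRSS57 by 1.19. Genes with the letters upstream therefore moved down, up or not in that line.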

How the data were processed

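RNA-seq covered 3 U937 lines at 0, 12 and 48 h in 9 libraries, and the 12 h pair of fusion lines was compared. Per the labels and the study's methods, libraries were made with the TruSeq RNA kit, and the authors aligned reads to hg38 with HISAT2 (2.0.5), handled them with samtools (1.7), counted them on genes with HTSeq (0.9.1) and deposited FPKM for 60623 Ensembl genes. DESeq2 (1.22.2) is also listed in the submitters' processing notes. The annotation version and the strand setting are not given in the sources used here, so reads of a gene and of one that overlaps it cannot be told apart.

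Reads behind the FPKM were recovered for 99.8% of genes above 0 in 3 or more libraries, since 1 read fixes the step between values. Python 3.11.15 was used with pandas 2.3.3, numpy 2.4.6 and scipy 1.17.1. Totals of reads on genes were 15136397 to 18443638 over the 9 libraries, 15434246 for the AML1-ETO and 17885141 for the ETO2-GLIS2 library at 12 h. At that depth 3 reads on a gene of 1 kb are 0.194 and 0.168 FPKM. The steps were tested on simulated data. Differences are of log2(FPKM + 0.1), for genes with a mean of at least 1 FPKM in the 12 h pair, called past 2-fold. With 1 library per condition no test was fitted.

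Gene types and exon overlaps came from GENCODE release 44, mapped to build 37, which holds 96.6% of the identifiers. None of its coordinates was printed. Positions and promoters came from RefSeq GRCh38.p14 by symbol. Where identifiers of a named or list gene shared a symbol, the one with the higher mean over all 9 libraries was used. The alternatives for the lists and the promoter search used the mean of the 12 h pair. For genes that parted at 0 h and not at 12 h, the promoter search used the mean of the 0 h pair. The genes named were the construct genes and their relatives, RHOU, SPI1 and CEBPB, the 15 largest differences a side among coding members with a mean of at least 10 FPKM and the whole interval past 2-fold (11 on the AE-high side), members of the lists, and members with a mean of at least 5 FPKM whose lines moved past 1.5-fold in opposite directions. Genes named beyond this rule (such as LCP2, FGR, CCR2, EGR1, KCNE1 and TNFSF10) were chosen after their values were seen. Some genes that were measured are not reported here. A member whose name a spreadsheet had changed to a date was not named. The members and lists were chosen with earlier results of these data known. Plots were drawn with matplotlib 3.10.9. Alternatives tried were other pseudocounts, filters, scalings, folds and treatments of the 0 h pair.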

Additional observations from a re-analysis of the deposited data

Results flagged for a closer look

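The lines moved in opposite directions between 0 and 12 h in 26 of the named members, each with both counting intervals clear of no change. Named were 26 AE-high and 34 EG-high genes, chosen as past 2-fold at 12 h and not at 0 h. Some were named because their lines moved in opposite directions. The count is therefore partly set by the choice of genes. The intervals cover counting error only. Some moves were small, such as JUP in the AML1-ETO line (0.13) and TUBA4A (0.09) and IL6R (0.15) in the ETO2-GLIS2 line. The values are the change of the AML1-ETO line minus that of the ETO2-GLIS2 line, on the log2 scale. No test of this difference was possible, and it was not tested, because each value rests on 4 single libraries.

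Up in the AML1-ETO line and down in the ETO2-GLIS2 line were CXCL8 (1.88), PRSS57 (1.82), HOMER3 (1.37), PIM3 (0.96), NRARP (0.77), SMAD6 (0.66), CFD (0.61), JUP (0.54) and the pseudogene AC027644.1 (2.35). NRARP is an inhibitor of Notch signalling. AC027644.1 rested on 44 reads against 9 at 12 h. From 0 to 12 h the empty vector line went down for CXCL8 (-1.90), JUP (-0.77) and SMAD6 (-0.01) and up for the others.

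Down in the AML1-ETO line and up in the ETO2-GLIS2 line were XAGE1B (-6.12), CBFA2T3 (-2.62), GLIS2 (-2.38), PHACTR3 (-2.00), VSIR (-1.88), LGALS12 (-1.87), SLA (-1.81), IL6R (-1.62), GPR183 (-1.52), TUBA4A (-1.34), SASH3 (-1.33), PTAFR (-1.31), IL10RA (-1.27), CCR1 (-1.26), PIK3AP1 (-1.10), CTSG (-1.02) and RHOU (-0.97). CBFA2T3 and GLIS2 include reads of the construct in the ETO2-GLIS2 line. The empty vector line changed by -0.57 for TUBA4A, -0.38 for GLIS2 and -0.05 for IL6R, and went up for the others. It rose most for VSIR (1.45), CTSG (0.95) and SLA (0.72) and least for PIK3AP1 (0.04). For most of these genes the ETO2-GLIS2 line thus moved the same way as the line without a fusion.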

How the results depend on the processing

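The AE-high count of 371 and the EG-high count of 208 depended on the limits. They were 242 and 127 with 1 FPKM added, 2237 and 1359 with no filter, 72 and 68 at a mean of 5 FPKM, 31 and 37 at 10 FPKM, 1138 and 611 after rescaling to TPM (where more low genes pass the minimum of 1), 906 and 520 at 1.5-fold, 102 and 39 at 4-fold, and 74 and 69 with the whole interval past 2-fold. Coding genes alone, an alternative chosen after seeing the data, gave 103 and 113. With nothing set aside the AE-high count was 580, and with the 0 h difference subtracted the EG-high count was 385. The cause was not tested. Median-ratio rescaling shifted the differences by -0.06 and gave 315 and 233. Of the 26 AE-high and 34 EG-high genes named, none changed sign under the 4 alternatives run on them, but calls were lost. With the 0 h difference subtracted 16 and 7 were no longer past 2-fold, among them CITED2 (0.74), SMAD6 (0.66), CFD (0.61), JUP (0.54) and EXOSC5 (0.37), and on the other side OAS3, RSAD2 and GJB2. With 1 FPKM added 3 and 6 were lost, and with median-ratio rescaling LYL1 and CCND2, both just under 2-fold. The rescaling turned the near-zero medians of 4 lists (E proteins and ETO corepressors, azurophil granule, ATF4 and amino acid stress, antigen presentation) to 0 or below.

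Against the empty vector, the AE-high coding genes lower in the ETO2-GLIS2 library were 15 rather than 5, the EG-high ones lower in the AML1-ETO library 72 rather than 40, and those higher in the ETO2-GLIS2 library 7 rather than 17. At 1.5-fold the 4 counts of moves were 62, 14, 77 and 30. By sign alone 91 AE-high coding genes kept their direction at 48 h. List members at a mean of 5 FPKM were 8 AE-high and 12 EG-high. No paired analysis was possible because each condition had 1 library. Leaving out a library was not possible for the same reason, and variation between cultures or clones cannot be estimated from these data.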
